A study of Mus musculus with 2 samples.

Results

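In libraries of cells sorted as immune cells out of MC38 tumours, 138 cell barcodes carried MHC class II RNA together with RNA of Mgl2, Napsa or Cd209a. These barcodes were also chosen for low or absent RNA of complement C1q and of a few marker genes of other cells. Those cells were type 1, mature and plasmacytoid dendritic cells, T cells and monocytes, whose other genes were not limited. The chosen barcodes are 138 of the 5225 barcodes that passed the quality filters, 81 of 2388 in replicate 1 and 57 of 2837 in replicate 2. Their working name is type 2 dendritic-like cells, and they are called the Mgl2/Napsa/Cd209a cells or the members below, because the check of that name against other dendritic cell genes was only partly met. MC38 is a mouse colon carcinoma line. Tumours were taken on day 21 and dissociated immune cells went directly from the sorter into droplet-based 3′ single-cell libraries. The series holds 1 group of 2 replicate libraries, both of the same tissue and time, with no genotype, strain, age or treatment given in the labels. The deposited names of the libraries each hold a different word that the labels do not explain, so a difference between them that the labels leave out cannot be told apart from replicate spread. Whether separate animals gave the replicates is not stated. Xist, the RNA of the inactive X chromosome in females, was found in replicate 1 and was at 0 in replicate 2 in every class fitted. The reason was not tested. The p-values rest only on how far differences between classes varied from 1 library to the other, which may be technical in part.

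Dendritic cells take up antigen and show it to T cells on MHC molecules. Type 1 cells, marked by Xcr1 and Clec9a, are known for cross-presentation to CD8 T cells, and type 2 cells are known for presenting on MHC class II to CD4 T cells. Type 2 cells share many genes with monocytes and with macrophages that carry MHC class II, and in tumours these populations are hard to separate by RNA. Mgl2 (CD301b) and Cd209a (a mouse relative of DC-SIGN) are C-type lectins that bind sugars on the cell surface, and Napsa is an aspartic protease.

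Members were chosen on measured counts. A member had 300 or more detected genes, under 10% mitochondrial UMIs (unique molecular identifiers, each standing for 1 captured RNA molecule), 10 or more UMIs of H2-Aa, H2-Ab1, H2-Eb1 and Cd74 summed, 1 or more of Mgl2, Napsa and Cd209a summed, 3 or fewer of C1qa, C1qb and C1qc summed, under 3 of the monocyte genes Ly6c2, Plac8, Chil3 and Ms4a4c summed, and 0 of Xcr1, Clec9a, Ccr7, Siglech, Cd3d, Cd3e and Cd3g. Values of these genes are therefore descriptions and carry no test. In the GRCm38 annotation Mgl2 lies on the plus strand at chr11:70130329-70137550, Napsa on the plus strand at chr7:44572380-44586862 and Cd209a on the minus strand at chr8:3743397-3748984. Of the 31-base words of the Mgl2 transcript 22.6% also occur in its neighbour Clec10a, but 0% of those in its last 500 bases do, where 3′ reads fall, and Cd209a and Napsa shared 0% with the relatives searched.

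The 2 libraries hold 5688000 and 5862342 UMIs in 2749 and 2937 barcodes, and share 0 barcodes. The members hold 135354 and 61921 UMIs, with medians of 1221 and 881 per cell and ranges of 555 to 5878 and 625 to 4529. Levels below are CPM, a gene's share of all UMIs summed over the cells of a class in a library, scaled to counts per 1e+06. A single UMI in the members is worth 7.39 CPM in replicate 1 and 16.1 CPM in replicate 2, so genes under about 50 CPM rest on a handful of molecules. Intervals are exact, at 95%, and cover counting error only. The libraries stood apart as wholes: Xist was at 0 in replicate 2 in each of the 4 classes fitted and at 278 to 1106 CPM in replicate 1, and Lyz2 was at 11 to 32.3 CPM in replicate 2 and 406 to 6901 CPM in replicate 1. Every value is therefore given for each library.

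Members made up 3.39% of filtered barcodes in replicate 1 (binomial interval 2.70 to 4.20%) and 2.01% in replicate 2 (1.53 to 2.60%), a mean of 2.70% ± 0.978 (SD, n = 2). The intervals do not overlap, so the libraries differed in this share by more than counting error. With 1 library on each side there is no test. Median UMIs also differed between the libraries, and the sort can set such shares. Thinning every cell to 800 UMIs before applying the rule gave 75 and 59 members, where 62 and 38 of the cells deep enough had been members before. Of these 62 and 38, 40 and 29 remained, so which cells were members, and how many, depended on depth. Of the members after thinning, 12 and 20 had held 4 to 9 C1q UMIs before. A further 8 and 2 had been macrophages with 10 or more MHC class II and 10 or more C1q UMIs. Such macrophages had medians of 1982 and 1447 UMIs, against 1221 and 881 in members, so shallow cells can pass the C1q limit more easily.

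Napsa was the most frequent of the 3 selecting genes, with a UMI in 56 of 81 members of replicate 1 and 38 of 57 of replicate 2. Mgl2 was seen in 41 and 20 members and Cd209a in 21 and 10. Members with Napsa alone numbered 33 and 30, and only 9 and 1 had all 3 genes. The selection rests on exactly 1 UMI in 37 members of replicate 1 and in 41 of replicate 2, which is most of the second library. For comparison, none of 33 T cell barcodes of replicate 1 (2 or more CD3 UMIs, median 1199 UMIs) had a Napsa UMI, which allows a share of up to 10.6%, and 4 of 63 in replicate 2 did (6.35%, median 1111 UMIs), while Mgl2 was found in 0 and 1 and Cd209a in 0 and 0 of them. Among barcodes with no UMI of Ptprc (CD45), C1q or CD3, 10 of 567 had a Napsa UMI in replicate 1 (1.76%, median 1833 UMIs) and 9 of 898 in replicate 2 (median 2074 UMIs). Both sets were also limited to under 10 MHC class II UMIs and 0 of Xcr1, Clec9a and Siglech. The T cell barcodes had 3 or fewer C1q UMIs. The shares in members lay far above both sets, as the rule requires. Napsa was more common in the classes nearest the members. A Napsa UMI was found in 22 of 63 and 35 of 168 C1q-low monocytes (34.9 and 20.8%), chosen by 3 or more UMIs of the monocyte genes. It was also found in 90 of 418 and 36 of 306 MHC class II macrophages with 10 or more C1q UMIs (21.5 and 11.8%).

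Cells that met every other condition but had 0 UMIs of the 3 genes lay just outside. They numbered 109 and 164, more than the members, with medians of 896 and 827 UMIs. Members with exactly 1 such UMI had 654 and 240 CPM of Lsp1 and 143 and 216 CPM of Klrd1, and the cells just outside had 266 and 248 CPM of Lsp1 and 129 and 168 CPM of Klrd1. C1q was at 0 UMIs in 49 of 81 members of replicate 1 and 22 of 57 of replicate 2, and the 4 monocyte genes in 52 and 22. At the C1q limit, the 15 and 25 members with 2 or 3 C1q UMIs had 3972 and 1431 CPM of Apoe, and cells with 4 or 5 had 5861 and 3269 CPM. Lsp1 was thus higher just inside than just outside in replicate 1 and about level in replicate 2, and Apoe was higher just outside the C1q limit in both libraries.

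**Figure D1:**
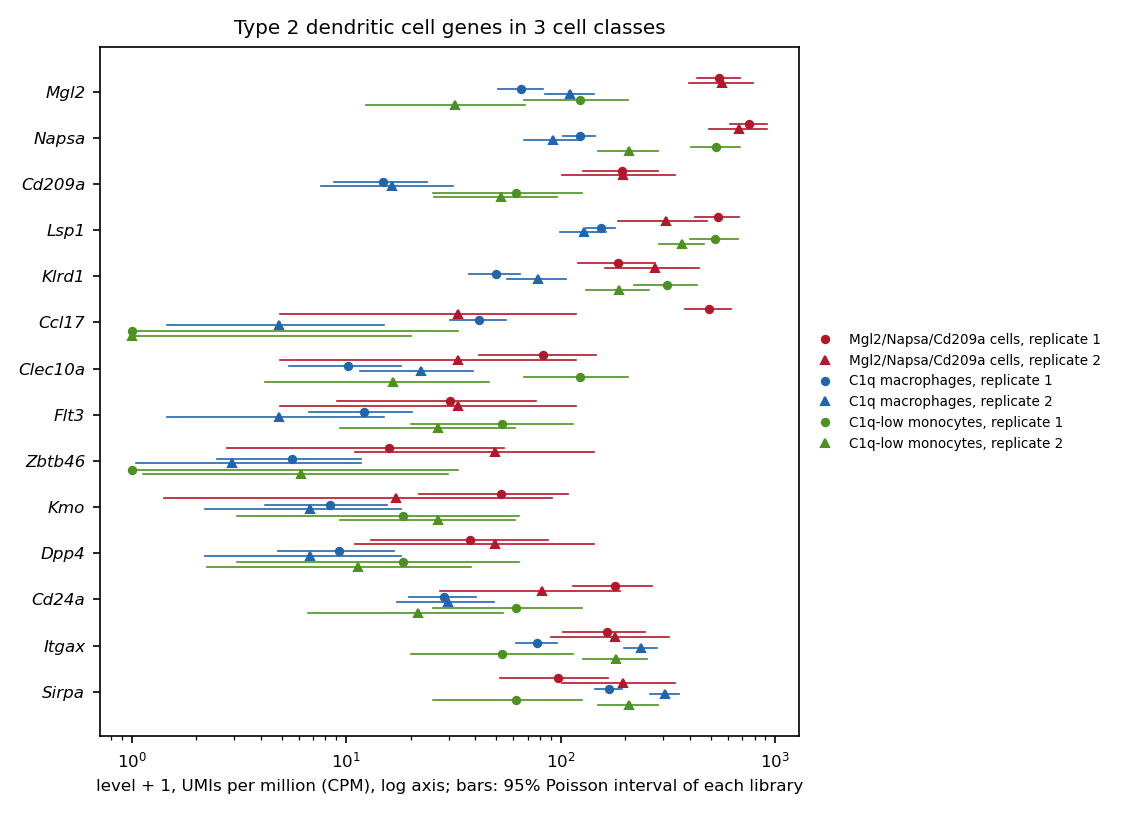
Level plus 1 in CPM (log axis) of the 3 selecting genes and 11 other type 2 dendritic cell genes in the Mgl2/Napsa/Cd209a cells, C1q macrophages and C1q-low monocytes, 1 point per library (circle replicate 1, triangle replicate 2) with its 95% Poisson interval. Mgl2, Napsa and Cd209a are high in the members because they chose them; Lsp1 and Klrd1 lie at about the level of the C1q-low monocytes, and Ccl17 is high only in the members of replicate 1.

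The name was checked against a list of 15 type 2 dendritic cell genes that the rule does not use. Lsp1 and Klrd1, both on the list, had been given as markers along with the rule, so their levels are no independent check. Lsp1, a leukocyte actin-binding protein (chr7:142460809-142494867, plus strand), stood at 539 and 307 CPM in members of replicates 1 and 2, and at 153 and 127 CPM in C1q macrophages, which are barcodes with 10 or more MHC class II and 10 or more C1q UMIs. Klrd1 (CD94), a lectin-like receptor chain of NK cells that type 2 dendritic cells also carry (chr6:129591782-129598775, plus strand), stood at 185 and 275 CPM against 48.8 and 77.2 CPM. Members were above macrophages in both libraries for both genes, without overlap of the counting intervals.

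The genes held to define conventional dendritic cells were near the floor. Flt3, the receptor for the dendritic growth factor, had 4 and 2 UMIs in the members (29.6 and 32.3 CPM), and Zbtb46, a transcription factor of conventional dendritic cells, had 2 and 3 UMIs (14.8 and 48.4 CPM). Irf4, a factor needed by type 2 cells, had 1 and 0 UMIs. Clec10a, the other mouse CD301 gene, had 11 and 2 UMIs (81.3 and 32.3 CPM). Kmo, Dpp4 and Cd24a gave 51.7, 36.9 and 177 CPM in replicate 1 and 16.1, 48.4 and 80.7 CPM in replicate 2. A Flt3 UMI was found in 4.94 and 3.51% of members and in 9.52 and 2.98% of C1q-low monocytes. For Zbtb46 the shares were 2.47 and 5.26% against 0 and 0.595%, and for Clec10a 11.1 and 3.51% against 9.52 and 1.79%.

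Summed over the list, type 2 dendritic genes reached 2017 CPM in members of replicate 1 and 1276 CPM in replicate 2. The sum includes Lsp1 and Klrd1, which were given with the rule, so it is not a fully independent check. C1q macrophages had 631 and 870 CPM. In replicate 2 most of the members' lead over macrophages came from Lsp1 and Klrd1, at the levels given above. C1q-low monocytes, with 3 or more UMIs of the 4 monocyte genes, 3 or fewer of C1q and no floor on MHC class II, had 1406 and 1132 CPM. T cell barcodes had 1051 and 1375 CPM, with Klrd1 at 332 and 594 CPM and Ltb, a lymphotoxin chain, at 516 and 308 CPM. The members of replicate 1 stood highest, whereas those of replicate 2 lay within the range of monocytes and T cells. Ccl17 made up 488 CPM of the sum in members of replicate 1 and was at 0 in monocytes, and 1 cell held 20 of its 66 UMIs. The lead over monocytes in replicate 1 thus rests in large part on Ccl17. With these limits, the name is better borne out in replicate 1 than in replicate 2, and no further cell type name is given.

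Other lineages were checked the same way. The 17 macrophage genes summed to 2512 and 2616 CPM in members, 22016 and 9373 CPM in C1q macrophages and 2961 and 3255 CPM in C1q-low monocytes. Apoe made up most of that sum in replicate 1; without the top gene it was 731 and 1857 CPM in members. The 10 monocyte genes summed to 7358 and 3068 CPM in members and 12554 and 4454 CPM in monocytes.

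Lists of cells that the rule does not name were also measured. In members of replicates 1 and 2, 12 T and NK genes gave 51.7 and 258 CPM (3502 and 4126 CPM in T cell barcodes), with Trac and Trbc1 at 0 in both libraries. Neutrophil genes outside the gates gave 66.5 and 419.9 CPM over 6 genes, and 7 tumour and stroma genes gave 44.3 and 274.5 CPM, with Krt8 and Krt18 at 0 in both. B cell genes gave 59.1 and 16.1 CPM over 5 genes. Genes of type 1, mature migratory and plasmacytoid dendritic cells gave 724 and 743, 347 and 840, and 362 and 452 CPM. Bst2 (tetherin), which macrophages also express, made up 325 and 388 CPM of the last. T and NK, neutrophil and tumour RNA was higher in replicate 2 than in replicate 1, and its part in the results below was not tested.

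**Figure D2:**
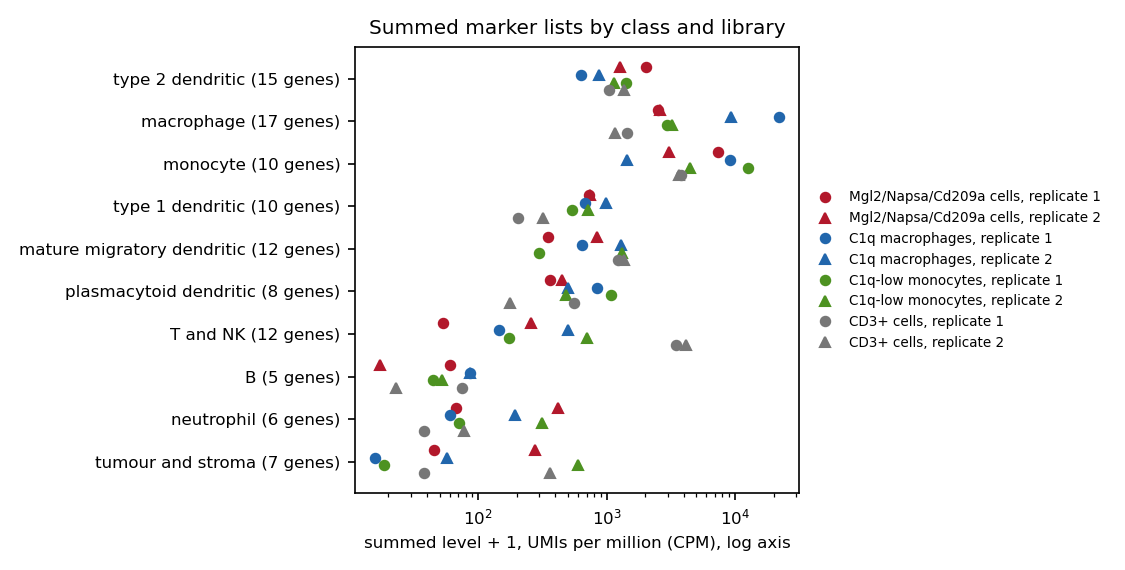
Summed level plus 1 in CPM (log axis) of 10 lineage lists in 4 cell classes, 1 point per library (circle replicate 1, triangle replicate 2). Members (red) lie far below C1q macrophages (blue) for macrophage genes, 2512 and 2616 against 22016 and 9373 CPM, and close to C1q-low monocytes (green) on most lists; the tumour and stroma list is higher in replicate 2 in every class.

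The first comparison asks how the members differ from MHC class II macrophages rich in C1q, the most numerous antigen-presenting cells of these libraries (418 and 306 barcodes). Counts were summed by class and library, and 1874 genes outside every gate were tested with edgeR's quasi-likelihood test with the library as a block. In members 22 genes were higher (1.17% of those tested) and 50 were lower (2.67%) at an adjusted p under 0.05, 3.84% in all, out of 256 with an unadjusted p under 0.05, and the median log2 difference of all tested genes was -0.01. Of the 72 called genes, 71 had the same direction in each library taken alone. The calls came from these same libraries, so this was largely set by the calling and is no replication. Without a filter on low counts the split was 17 higher and 73 lower, DESeq2 called 9 and 17, and without the library block 0 and 1 were called, the 1 being Ms4a7. Genes expressed along with C1q or MHC class II can differ here by the choice of cells, so the calls are a description of chosen cells and do not test the rule.

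Lsp1 and Klrd1 were the 2 of 7 tested type 2 dendritic genes that were higher, and none was lower (list median 1.76 on the log2 scale). Both had been given as markers with the rule, and the other 5 tested genes did not pass. The 8 others of the list, Flt3, Zbtb46, Irf4, Kmo, Cd7, Dpp4, Tnip3 and Ccl17, had too few counts to be tested. The difference in Lsp1 was 1.76 (log2, SE 0.35, adjusted p = 0.00534), with 1.98 in replicate 1 and 1.23 in replicate 2. For Klrd1 it was 1.98 (SE 0.40, adjusted p = 0.00615), with 1.99 and 1.74 in the libraries, and the call was lost at 500 genes per cell and without the library block. Cd24a, a surface glycoprotein of dendritic cells, had 2.34 (SE 0.66) and just missed the threshold (adjusted p = 0.0523).

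Within the MHC class II pathway the selecting genes themselves set the floor, so the machinery outside the rule was read. H2-DMb2, a chain of H2-M, which exchanges the invariant chain peptide for antigen peptides (chr17:34143307-34151555, plus strand), was at 222 and 161 CPM in members, 36.8 and 54.0 CPM in macrophages and 130 and 46.5 CPM in monocytes. It was higher than in macrophages by 2.24 (log2, SE 0.51, adjusted p = 0.0152). The values of members lay above those of macrophages in both libraries, but in replicate 2 the counting intervals just overlapped. It was the only 1 of 6 tested genes of this list to pass, and none was lower (list median 0.27). Its call was lost at 500 genes per cell and without the library block, and its difference was 1.46 without replicate 1. Its partner H2-DMa stood at 820 and 775 CPM against 531 and 812, and H2-DMb1 at 369 and 339 against 336 and 505 CPM. For both genes the values of the 2 classes overlapped. The whole transcripts of H2-DMb2 and H2-DMb1 share 34.4% of their 31-base words but 0.851% in the last 500 bases.

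None of 10 tested genes of MHC class I presentation passed (list median -0.16), and neither did any of 4 costimulatory and checkpoint ligands (-0.19), among them Cd86 at 51.7 and 145 CPM in members and 44.2 and 96.4 CPM in macrophages. Of 9 C-type lectins outside the rule, Clec12a was lower (59.1 and 80.7 against 266 and 191 CPM, adjusted p = 0.0338) and the list median was -1.09. All 3 tested Toll-like receptor genes, Tlr2, Cd14 and Unc93b1, missed the threshold, as did Il1b, Il1rn and Tgfb1 among the cytokines. Il12b, Il23a and Il6 had 0 UMIs in the members of both libraries, which allows up to 27.3 and 59.6 CPM.

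S100 proteins, small calcium-binding proteins of monocytes and dendritic cells, were higher as a group: 4 of 5 tested rose and none fell (list median 1.17). S100a4, a regulator of myosin and cell movement, was at 4226 and 2067 CPM in members against 1693 and 860 CPM in macrophages, a difference of 1.43 (log2, SE 0.22, adjusted p = 0.000361). S100a6, S100a11 and S100a10 were higher by 1.17, 1.17 and 0.94, while S100a13 did not pass (207 and 226 against 277 and 187 CPM). Both libraries ran the same way for the 4 genes that passed, and each stood higher in C1q-low monocytes than in members in replicate 1.

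The remaining genes that were higher and are named by size had several roles. Jaml, a junctional adhesion protein of leukocytes, stood at 111 and 64.6 CPM against 15.6 and 21.2, and Itgb7, the integrin chain of gut-homing and dendritic cells, at 118 and 129 against 20.2 and 38.6 CPM. Ifitm1 and Ifitm6, membrane proteins of the interferon-induced transmembrane family, were higher by 1.96 and 2.34 (adjusted p = 0.00294 and 0.0466), with Ifitm1 at 983 and 2148 CPM against 166 and 1011. Serpinh1, a collagen chaperone, had the largest difference named (3.39, SE 0.91, adjusted p = 0.0387), from 8 and 7 UMIs in members. Its levels of 59.1 and 113 CPM in members compare with 6.44 and 9.64 CPM in macrophages and 55.3 and 66.0 CPM in T cell barcodes, so T cells carried it at about the same level. Ifitm6 lost its call under 8 of the 12 alternatives in which it could be tested, among them other size factors (RLE), Jaml under 6 of 12, Itgb7 under 5 of 12, Ifitm1 under 3 of 14 and Serpinh1 under 2 of 6. Without replicate 1 the differences of Ifitm6, Jaml and Ifitm1 were 1.32, 1.32 and 1.09.

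Id2, a transcriptional regulator needed for dendritic cells, was higher (561 and 291 against 202 and 218 CPM; log2 1.20, adjusted p = 0.0466), and Maf, a macrophage factor, was lower (22.2 and 145 against 333 and 403 CPM; -2.37, adjusted p = 0.0155). The other 8 of 10 tested lineage transcription factors did not pass (list median 0.07). Of 16 actin cytoskeleton genes, Tmsb10 alone was higher, by 0.89 (adjusted p = 0.0105). Cst3, the protease inhibitor cystatin C that dendritic cells make in quantity, and Csf2rb, the shared receptor chain for GM-CSF, IL-3 and IL-5, were also among the called genes and were picked out after their values were seen. Cst3 was at 10314 and 4958 CPM against 4049 and 2282, and Csf2rb at 126 and 388 against 65.3 and 164 CPM.

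Immediate early and heat shock genes, which many tissues raise on dissociation, had 3 of 16 tested genes higher and none lower (list median 0.49). Egr1, an immediate early transcription factor, was at 81.3 and 404 CPM in members and 47.9 and 106 CPM in macrophages (log2 1.54, adjusted p = 0.0138). Hspa1a and Hspa1b, the 2 inducible HSP70 genes, were at 73.9 and 355 CPM and at 126 and 291 CPM in members, against 35.0 and 108 and 32.2 and 143 CPM in macrophages (1.55 and 1.53, adjusted p = 0.0251 and 0.0304). All 3 were higher in replicate 2 than in replicate 1 in both classes. Fos, Hspa8 and Dusp1 did not pass, with -0.16, -0.01 and 0.07. The call of Egr1 was lost under 8 of 14 alternatives and those of Hspa1a and Hspa1b under 7 of 14 each, DESeq2 among them. The Egr1 difference was 0.88 without replicate 2, and that of Hspa1b was 0.998 without replicate 1.

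The HSP70 genes are near-copies, and the bases before their start sites are shown by sequence. These bases do not bear on how reads were split between the genes, which the comparison of transcripts at the end of the paragraph concerns. The 250 bases before each start site, on the minus strand of chromosome 17 in GRCm38.p6 (RefSeq), are given 5′ to 3′ with the match to GAANNTTC, the core of a heat shock element, in capitals.
Hspa1a, chr17:34972157-34972406: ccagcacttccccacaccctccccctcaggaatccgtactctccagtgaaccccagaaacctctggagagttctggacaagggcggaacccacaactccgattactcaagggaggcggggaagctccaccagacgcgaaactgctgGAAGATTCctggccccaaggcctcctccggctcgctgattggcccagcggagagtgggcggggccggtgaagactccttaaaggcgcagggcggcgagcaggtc
Hspa1b, chr17:34959239-34959488: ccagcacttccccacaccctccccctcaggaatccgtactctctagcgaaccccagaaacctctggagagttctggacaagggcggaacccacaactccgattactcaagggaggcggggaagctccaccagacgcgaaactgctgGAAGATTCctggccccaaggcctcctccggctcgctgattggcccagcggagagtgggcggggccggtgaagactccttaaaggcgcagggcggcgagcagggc
The 2 stretches differ at 3 of 250 positions. Each holds 1 match, beginning 104 bases before the start site, on a motif that reads the same on both strands. Of 32851 promoters of that length 2199 (6.69%) hold at least 1 match, and Serpinh1 holds 0. A match is a description of the letters and no evidence of binding. The 2 transcripts share 63.8% of their 31-base words but 0% in the last 500 bases, so 3′ reads can mostly tell them apart.

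Genes lower in members were led by the macrophage programme. Of 13 tested macrophage genes 9 fell and none rose (list median -1.85). Apoe, the lipid carrier of macrophages, was at 1781 and 759 CPM in members and 17303 and 4697 CPM in macrophages, a difference of -2.87 (log2, SE 0.23, adjusted p = 8.39e-08). In replicate 1 a single cell held 66 of the 241 Apoe UMIs, and 37 of 81 members had any; without that cell the level was 1352 CPM. Ms4a7, a tetraspanner of macrophages, was at 59.1 and 145 against 807 and 596 CPM (-2.84, adjusted p = 7.7e-05), and Selenop, a selenium carrier, at 29.6 and 113 against 409 and 496 CPM (-2.80).

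Pf4, Maf, Trem2, Adgre1, Fcgr1 and Cd68 were the other 6, with differences between -2.37 and -1.61. Csf1r, the receptor on which macrophages depend, had 88.7 and 323 CPM in members and 355 and 519 CPM in macrophages and missed the threshold (-1.20, adjusted p = 0.0619). For Pf4 and Maf the members of replicate 2 had 258 and 145 CPM and those of replicate 1 had 22.2 CPM of each, so the distance from macrophages was smaller in replicate 2.

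Chemokine genes were lower as well. Of 17 tested chemokine and receptor genes 6 fell and none rose (list median -0.93): Ccl8, Ccl12, Ccl7, Ccl4, Cxcl9 and Cx3cr1. Ccl8, a ligand of CCR2 and other receptors, was at 14.8 and 64.6 CPM in members and 234 and 880 CPM in macrophages (-3.75, SE 0.51, adjusted p = 9.58e-05), and Ccl12 at 22.2 and 96.9 against 576 and 274 CPM (-3.03). Cxcl9, which attracts CXCR3-bearing T cells, was at 118 and 517 against 589 and 1562 CPM (-1.82, adjusted p = 0.000488). The groups did not overlap within a library for any of these 3 genes. Without replicate 1 the Ccl12 difference was -1.42, and Ccl7 lost its call under 4 of 12 alternatives. Ccl2, the CCR2 ligand that draws monocytes, did not pass (133 and 178 against 359 and 260 CPM; -0.93, adjusted p = 0.281), nor did Cxcl16 and Ccl6.

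Lysosomal hydrolases and membrane proteins had 6 of 18 lower and none higher (list median -0.88). Lgmn, the asparagine endopeptidase legumain, was at 73.9 and 210 against 654 and 735 CPM (-2.41, adjusted p = 0.00276), and Ctsb and Ctsc, cathepsins of the lysosome, fell by 1.40 and 1.31 on the log2 scale. Cd68, Grn and Lamp1 were the other 3. Cathepsin S, which trims the invariant chain of MHC class II, did not pass (Ctss at 1071 and 1841 against 2117 and 2404 CPM; -0.58, adjusted p = 0.151).

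Fc and complement receptors had 3 of 8 lower and none higher (list median -1.29). Fcer1g, the shared signalling chain of Fc receptors, was at 901 and 1373 against 2616 and 3308 CPM (-1.29, adjusted p = 0.000873), followed by Fcgr1 and Fcgr4. Among the genes named by size, Tmem86a, Calhm6 and Cd84 were also lower but rested on 2, 2 and 3 UMIs in all members. Tmem86a was at 7.39 (0.187 to 41.2) and 16.1 CPM (0.409 to 90.0) in members and 121 and 96.4 CPM in macrophages. Calhm6 was at 0 (up to 27.3) and 32.3 CPM (3.91 to 117) against 36.8 and 224 CPM, and Cd84, a homophilic receptor of leukocytes, at 14.8 (1.79 to 53.4) and 16.1 CPM (0.409 to 90.0) against 108 and 94.5 CPM. Selenom and Ntpcr had 4 and 5 UMIs in replicate 1 and 0 in replicate 2. Selenom lost its call under 7 of 11 alternatives, and Calhm6, Cd84, Ntpcr and Tmem86a under 4 of 12, 3 of 9, 2 of 11 and 2 of 9.

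**Figure D3:**
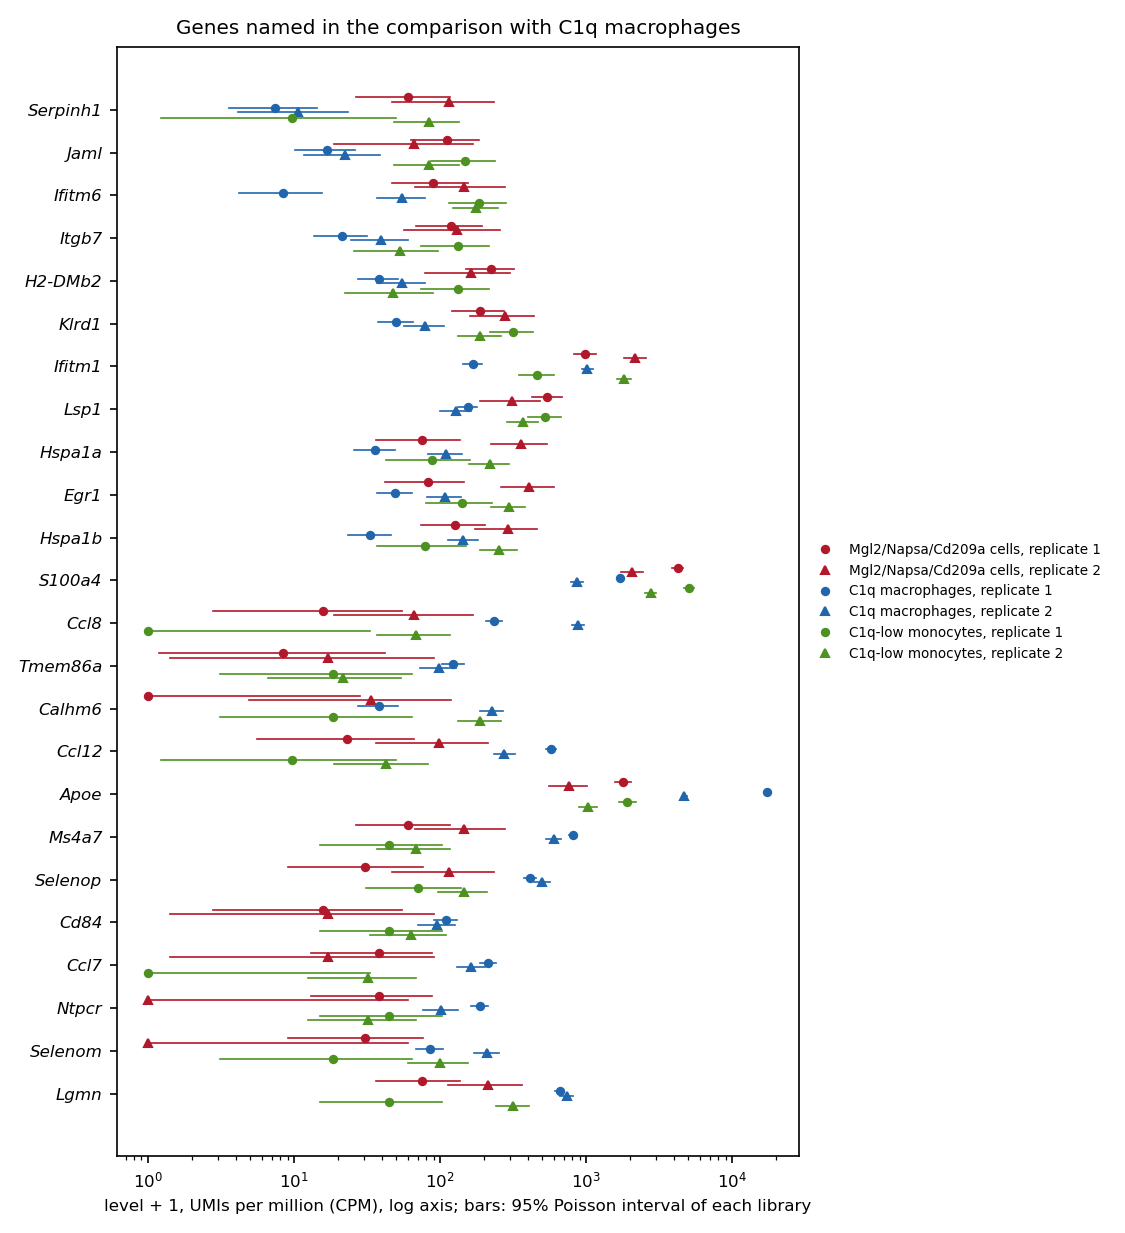
Level plus 1 in CPM (log axis) of the 12 genes named as higher (top) and the 12 named as lower (bottom) than in C1q macrophages, for members, C1q macrophages and C1q-low monocytes, 1 point per library (circle replicate 1, triangle replicate 2) with its 95% Poisson interval. For most of these genes the monocyte points lie beside those of the members; Apoe, for example, is at 1910 and 1023 CPM in monocytes and 1781 and 759 CPM in members.

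Lyz2, lysozyme of myeloid cells, was called lower (-1.20, adjusted p = 0.0251), but its 2 libraries went opposite ways, -1.31 and 0.79. It stood at 2401 CPM in members and 6901 CPM in macrophages of replicate 1 and at 32.3 and 15.4 CPM in replicate 2, where it was near the floor in every class fitted. The call thus rests on replicate 1. Among 7 tested monocyte genes S100a4 was higher and Lyz2 lower, and Ccr2, the monocyte chemokine receptor, did not pass (236 and 339 against 197 and 231 CPM).

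None of 14 interferon-induced genes (list median -0.54), 11 glycolysis genes (-0.22), 8 cell cycle genes (-0.41) or 3 genes of acetyl-CoA supply and sterol synthesis (0.65) passed against macrophages. Acly, which makes cytosolic acetyl-CoA from citrate, was at 44.3 and 96.9 CPM in members and 35.9 and 55.9 CPM in macrophages, and Acss2, which makes it from acetate, had 0 UMIs in members of both libraries. Mki67, a marker of cycling cells, had a UMI in 3 of 81 and 3 of 57 members. No gene passed of the 3 type 1 (list median 0.10), 4 mature migratory (-0.42), 1 plasmacytoid (-0.64), 8 T and NK (-0.81), 1 neutrophil (1.80) or 2 tumour and stroma genes (1.83) tested, and none of the B cell list had counts enough.

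**Figure D4:**
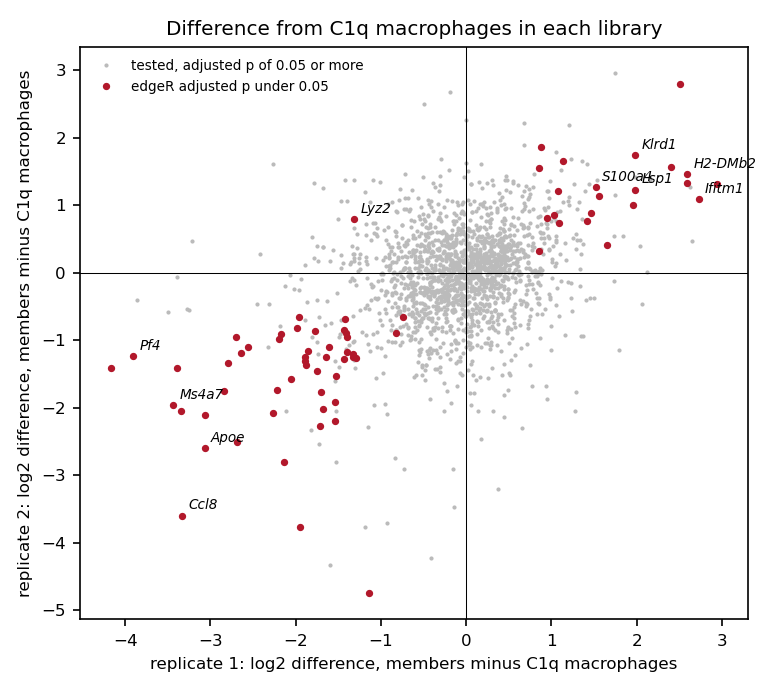
Log2 difference between members and C1q macrophages in replicate 1 (horizontal) and in replicate 2 (vertical) for each of the 1874 tested genes outside the gates, with the 72 genes at an edgeR adjusted p under 0.05 in red. All red points but Lyz2 lie in the lower left or upper right quadrant, which calling them from these same libraries largely sets.

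The second comparison sets the members beside the C1q-low monocytes (63 and 168 barcodes). The same member libraries serve both comparisons, so the results are not independent of each other. No gene was higher (0.0%) and 1 of 1874 was lower (0.0534%) by edgeR, with 124 at an unadjusted p under 0.05, and DESeq2 also called 0 and 1. The 1 gene was Ms4a6b, a membrane-spanning protein of the Ms4a family, at 59.1 and 80.7 CPM in members (8 and 5 UMIs), 313 and 310 CPM in monocytes and 237 and 297 CPM in macrophages. Its difference from monocytes was -2.14 (log2, SE 0.41, adjusted p = 0.0156), with -2.20 and -1.87 in the libraries, and members lay below both other classes without overlap. The adjusted p rose above 0.05 under 6 alternatives, to between 0.0601 (20 or more MHC class II UMIs) and 0.297 (no library block). Ms4a4c, of the same family, is a gate gene, so the monocytes were partly chosen on a relative of Ms4a6b.

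The type 2 dendritic list did not set members apart from monocytes. Lsp1 was at 539 and 307 CPM in members and 521 and 367 CPM in monocytes (log2 0.03, SE 0.36, adjusted p = 0.998), and Klrd1 at 185 and 275 against 313 and 186 CPM (-0.08, SE 0.40, adjusted p = 0.99). Neither gene had 1 direction in the 2 libraries. None of 7 tested genes of the list passed (median 0.04). A p above the threshold does not show that the classes are alike. Of the 3 selecting genes, which the rule required in members alone, Mgl2 differed most from monocytes in both libraries, at 547 and 565 against 122 and 31 CPM, and Napsa less, at 754 and 678 against 530 and 207 CPM.

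Across the other lists 0 genes passed against monocytes. All 14 tested interferon-induced genes had negative log2 differences (list median -1.06), such as Isg15, a ubiquitin-like protein, at 118 and 371 against 573 and 548 CPM (-1.34, adjusted p = 0.168). All 7 tested monocyte genes were negative too (median -1.26), and all 6 of the MHC class II machinery were positive (median 0.42), led by H2-DMb2 (1.29, adjusted p = 0.617). The gates select on monocyte genes and on MHC class II, and the median of all tested genes was -0.02. Medians of the remaining tested lists ran from -1.44 for T and NK genes to 0.72 for the 1 neutrophil gene, with -0.27 for macrophage, 0.09 for lysosomal, -0.48 for Fc and complement receptor, -0.08 for chemokine and -0.14 for S100 genes.

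Comparisons with type 1 and mature migratory dendritic cells were not made, because these classes held 16 and 1 barcodes and 1 and 1. In the 16 type 1 cells of replicate 1, Lsp1 was at 643 CPM, Napsa at 343 CPM, Cd209a at 0 and Cst3 at 24218 CPM, against 539, 754, 192 and 10314 CPM in the members of that library. Irf8 and Naaa, genes of type 1 cells, were at 900 and 729 CPM there and at 170 and 192 CPM in members. Lsp1 and Napsa were thus not limited to the members even among dendritic cells.

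Members varied among themselves. The 21 and 10 with a Cd209a UMI were set against the 60 and 47 without, and 0 of 1417 tested genes were higher (0.0%) and 0 lower by edgeR or by DESeq2, with 52 at an unadjusted p under 0.05 by edgeR. Ccl6, a myeloid chemokine, was at 43.2 and 91.1 CPM in Cd209a-positive and 382 and 393 CPM in Cd209a-negative members (-2.71, SE 0.77, adjusted p = 0.789). Ccl5, a chemokine of T cells and activated myeloid cells, was at 21.6 and 91.1 against 224 and 412 CPM (-2.87, adjusted p = 0.791), and Apoe at 605 and 729 against 2390 and 766 CPM (-1.50, adjusted p = 0.789). For Ccl6 and Ccl5 both libraries ran the same way, but the Cd209a-positive sums rest on 2 and 1 and on 1 and 1 UMIs. Klrd1 was at 281 and 547 against 135 and 216 CPM (1.11, adjusted p = 0.998).

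Ccl17, a ligand of CCR4 that type 2 dendritic cells secrete (chr8:94810453-94812036, plus strand), split the members by library. It had 66 UMIs in 23 of 81 members of replicate 1 (488 CPM, interval 377 to 620) and 2 UMIs in 1 of 57 members of replicate 2 (32.3 CPM, 3.91 to 117). In macrophages it was at 40.5 and 3.86 CPM and in monocytes at 0 in both libraries. A single cell held 20 of the 66 UMIs, and without it the level was 342 CPM. In replicate 1, 45 of the UMIs were in Cd209a-positive members (973 CPM against 236 CPM in the rest). The cell with 20 UMIs was one of them, and without it they stood at 551 CPM. In replicate 2 the Cd209a-positive members had 0. Cells just outside the rule in replicate 1 held it too, at 308 CPM with 4 or 5 C1q UMIs and 255 CPM with a UMI of an excluded gene. Ccl17 was thus seen in replicate 1 in members and in cells next to them, and was low in C1q macrophages and at 0 in monocytes.

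Over 1317 genes with 100 or more CPM in members of either library, 53 were higher in replicate 1 (4.02%) and 162 in replicate 2 (12.3%) by Poisson intervals that did not overlap. With 1 library on each side there is no test, and of these 215 genes 197 ran the same way in macrophages and 202 in monocytes. These counts are of direction alone, and sizes differed between classes for some of the genes below. Xist, the RNA of the inactive X chromosome in females, was at 406 CPM and 0 in members and at 530 CPM and 0 in macrophages.

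Among the genes highest in replicate 1, Retnla, a secreted resistin-like protein of alternatively activated macrophages, was at 155 CPM against 0 in replicate 2, with 14.7 CPM in macrophages of replicate 1. Tnni2, Qpct and Mt2 were at 133, 118 and 118 CPM against 0, and Lmna, a nuclear lamin, at 163 against 16.1 CPM. Lyz2 and Ccl17 complete the 8 of largest ratio. Lmna differed little between the libraries in macrophages, 117 and 112 CPM.

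In replicate 2 the neutrophil alarmin S100a9 was at 549 CPM against 0 in replicate 1 in members, and at 268 against 186 CPM in macrophages. Its partner S100a8 was at 775 against 36.9 CPM; both are gate genes of other classes. Ptgs2, the inducible cyclooxygenase, was at 210 against 7.39 CPM, with 106 against 2.76 CPM in macrophages, and Irf1, an interferon-regulated factor, at 161 against 0. Crabp1, Lgals7, Col1a2, Mmp13 and Lgals8 were at 129, 178, 113, 145 and 113 CPM against 0. Of these, Crabp1 and Lgals7 were at 385 and 198 CPM in T cell barcodes of replicate 2, more than in the members.

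**Figure D5:**
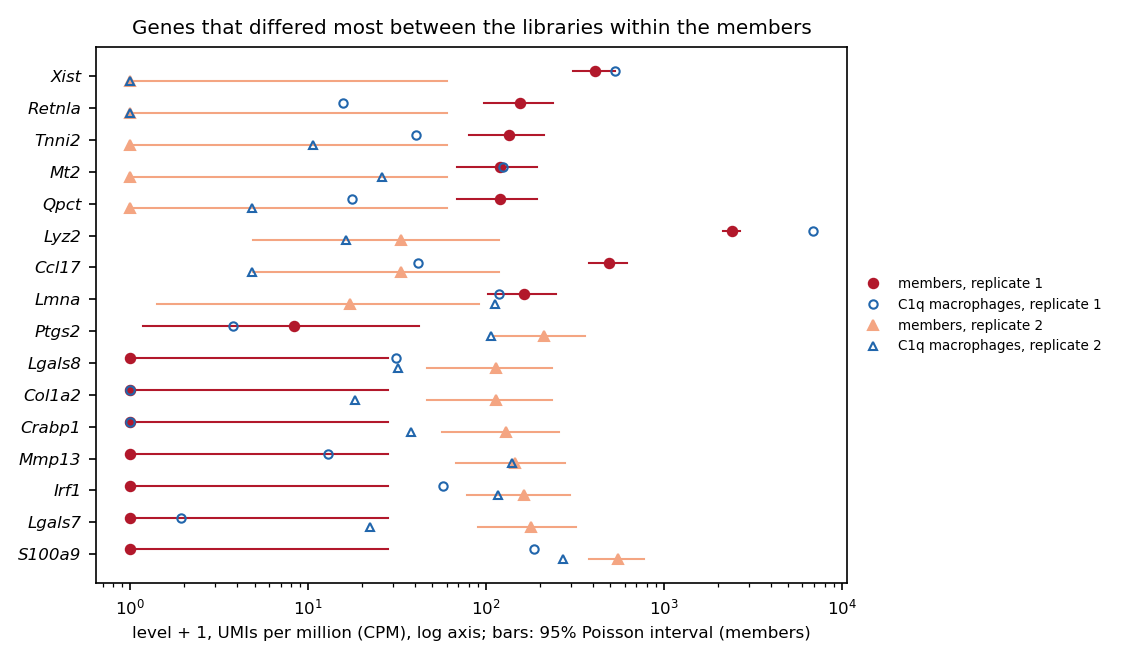
Level plus 1 in CPM (log axis) of the 8 genes highest in replicate 1 relative to replicate 2 of the members (top) and the 8 highest in replicate 2 (bottom); filled symbols are members with 95% Poisson intervals, open blue symbols are C1q macrophages, circles replicate 1 and triangles replicate 2. Ccl17 and Retnla are higher in members of replicate 1 than in any macrophage point, whereas Xist and Lyz2 differ in both classes alike.

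Gm42418, a locus that overlaps ribosomal RNA, took 16.3% of member UMIs in replicate 1 and 7.27% in replicate 2, and was among the genes called higher than in macrophages (10.4% and 5.86%; log2 0.59). Leaving out it and AY036118, a choice made after seeing the data, left 16 genes higher and 44 lower than in macrophages, all of them among the original calls. The count of genes lower than in monocytes stayed at 1.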

How the data were processed

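The authors deposited, per library, raw UMI counts per gene and barcode made by Cell Ranger (version 6.0.1 per the file headers). The submitters' processing notes also name Seurat 4.0.1 and mm10, and the gene annotation is not given in the sources used here. Barcodes were gated as the report states, with 25 gate genes. Scrublet called 6 and 6 barcodes (0.230%), too few to have worked, so doublets were not removed.

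Counts were summed per class and library over the classes with 20 or more cells in both libraries (members, C1q macrophages, C1q-low monocytes, T cells) and fitted with edgeR 4.0.16 in R 4.3.3: TMM, filterByExpr, quasi-likelihood test, Benjamini-Hochberg over all genes tested, residual degrees of freedom 3 (4 in the Cd209a comparison). All classes share 1 estimate of the spread. Classes of a library share its number by construction, so the library was a block. The script was tested on simulated data. DESeq2 1.42.0 and other alternatives are given in the closing section.

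The members, gates and 27 gene lists (348 of 351 genes found) were chosen with earlier results of these data known. Genes were named by rule: adjusted p under 0.05, 1 direction in both libraries, 50 CPM or more in the higher class, the 12 of largest log2 change each way, list genes of smallest p, and, between libraries, the 8 of largest ratio at 100 CPM or more (1 CPM added). Positions come from GENCODE vM21, promoters from RefSeq. Some results are not reported here.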

Additional observations from a re-analysis of the deposited data

How the results depend on the processing

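Against C1q macrophages the counts of higher and lower genes, 22 and 50, came to 9 and 17 with DESeq2 (adjusted p not given for 806 genes), 57 and 104 in a fit of the 2 classes alone, 6 and 16 at 500 genes and under 5% mitochondrial UMIs, 8 and 26 after thinning to 800 UMIs, and 9 and 23 at 2 or more selecting UMIs. Without the replicate block, which here pairs classes of 1 library, they were 0 and 1. The other alternatives gave 15 to 22 and 38 to 73. Against monocytes the counts, 0 and 1, came to 1 and 3 without a filter, 1 and 3 in the fit of 2 classes, 1 and 2 after thinning, 0 and 0 at 20 or more MHC class II UMIs or without the replicate block, 0 and 2 at 1 or fewer C1q UMIs, and 2 and 8 at 0 C1q UMIs, an alternative added after seeing the data. In the Cd209a comparison, 0 and 0, the 2 classes alone gave 1 and 3, and the replicate block changed no call. The share of members, 2.70%, was 1.20% at 2 or more selecting UMIs and 2.01 to 3.39% with 1 library left out. For the 24 genes named against macrophages, 79 values lost the call and 0 reversed. Another 246 kept direction and call or, with 1 library left out and no call, lay within 1 SE of the main difference. The 23 that moved by more than 1 SE were all values with 1 library left out. Against monocytes Lsp1 (0.03) reversed to -0.080 without a filter, -0.014 in the fit of 2 classes and -0.28 without replicate 1 (0.14 without replicate 2), and Klrd1 (-0.08) to 0.11 at 0 C1q UMIs, 0.31 after thinning, 0.21 at 2 or more selecting UMIs and 0.51 without replicate 1 (-0.65 without replicate 2). In the Cd209a comparison Lsp1 (-0.26) ran from -0.82 to 0.93 with 1 library left out. Leaving out a library leaves no residual degrees of freedom, so it gives values with no test. Fewer cells or genes enter the stricter settings; otherwise the cause was not tested. At 7.39 and 16.1 CPM per UMI, genes under about 50 CPM could not be compared.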
